A study of Mus musculus with 25 samples.

Results

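Interferon-stimulated genes are the genes that a cell turns on when it senses interferon. Their state was examined in RNA from FACS-sorted microglia of mice with Bin1 deleted in forebrain excitatory neurons. The members were 36 genes listed by symbol, known targets of interferon chosen with earlier results of these data in view, with Ifit3, Irf7 and Rtp4 as their markers. They were 36 of the 43411 genes in the deposited table, and all were found in it. Of these, 34 had enough counts to be tested, beside 12908 genes tested in all, and Oasl1 and Ifi44 did not.

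RNA was sequenced from sorted CD11b+; CD45med brain cells of 23 mice at 3 months of age, with 1 library per mouse. Homo-cKO mice (Bin1flox/flox with Thy1-Cre, n = 10) had both copies of Bin1 targeted in neurons, Het-cKO mice (Bin1flox/wt with Thy1-Cre, n = 7) had 1 copy targeted there, and WT littermates (Bin1flox/wt without Thy1-Cre, n = 6) had no Cre. Mice of all 3 groups thus carried at least 1 floxed allele, and 17 of the 23 carried Cre. The floxed allele came from B6.129S6-Bin1tm2Gcp/J mice and Cre from FVB/N-Tg(Thy1-cre)1Vln/J mice. The paper used this Cre for deletion in forebrain excitatory neurons, and still detected some neuronal Bin1 in brain lysates of Homo-cKO mice. There were 5 females and 5 males among the Homo-cKO mice, 4 and 3 among the Het-cKO mice, and 2 and 4 among the WT mice.

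Type I interferons bind the Ifnar1 and Ifnar2 receptor, whose kinases activate Stat2, which joins Irf9 in the ISGF3 complex that binds the interferon-stimulated response element in promoters. Its targets block viruses at many steps: Ifit proteins bind foreign RNA, Ifitm proteins stop viral fusion at membranes, Oas enzymes and Rig-I-like helicases sense double-stranded RNA, and Isg15 is attached to other proteins. Irf7, itself a target, amplifies the response. In the brain, a subset of microglia with high levels of these genes is known as interferon-responsive microglia.

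Several facts of the libraries bear on the results. Total counts ran from 10812969 to 16734846 per mouse, with a median of 13477985. The 8 microglia markers summed to between 52001 and 86849 CPM (counts as a share of the normalized library total, times 1e6) over all mice. T and NK cell markers summed to at most 0.584 CPM, with 2 of the 6 listed at 0 in all mice. Endothelial markers summed to at most 1.05 CPM (Cldn5 was listed at 0 in all mice). Astrocyte markers summed to 225 to 259 CPM in WT and 226 to 306 in Homo-cKO. Over all mice, oligodendrocyte markers summed to 62.8 to 129 CPM, B cell markers to 28.4 to 54.0, nearly all from Cd79b, border macrophage markers to 5.94 to 54.4 (Mrc1 listed at 0) and plasmacytoid dendritic cell markers to 7.49 to 21.3 (2 of the 5 listed at 0 in all mice). Bin1 itself was measured in the sorted cells at 699 ± 88.3 CPM in WT (SD, n = 6), 692 ± 40.6 in Het-cKO (n = 7) and 481 ± 130 in Homo-cKO (n = 10; log2 fold change against WT -0.60, adjusted p = 0.0017), which does not check the neuronal deletion. Whether Cre acted in the sorted cells was not tested. Animal numbers began with 02 in every WT and Het-cKO mouse, and with 03 (6 mice) or 04 (4 mice) in the Homo-cKO mice, so genotype and any cohort marked by these numbers cannot be told apart. Fos was between 824 and 1459 CPM in Homo-cKO mice F1, F2, M1 and M2, and at most 6.999 CPM in every other mouse.

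Promoter sequence is described first, because ISGF3 binds the response element in promoters of its targets. RefSeq promoter windows (GRCm38.p6, 250 bases before to 50 after each start) were matched by symbol to 29 members with 35 windows. No window was available for Rtp4, Ifi27l2a, Dhx58, Zbp1, Usp18, Mx1 and Parp14, so whether these hold a motif is not known here. The motif GAAA-NN-GAAA (2 runs of GAAA with any 2 bases between), the core of the response element, was searched on both strands, with overlapping matches counted. It was present in 16 of the 35 member windows (45.7%), against 3.44% of all 32851 windows. By gene, 15 of 29 members had it: Ifit1, Ifit3, Stat2, Ddx58, Ifih1, Eif2ak2, Oas1a, Isg15, Bst2, Ifitm2, Ifitm3, Gbp2, Gbp3, Rsad2 and Trim30a. A second motif, TTCNNNGAA, the core of the gamma-activated sequence, was in 8 of the 35 member windows (22.9%) and in 8.30% of all windows.

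The following stretches are shown because 4 of the genes, Ifitm2, Rsad2, Ifit3 and Ifitm3, were the members called higher in Homo-cKO microglia with the smallest p among those that hold this motif, and Slfn2 was the member with the smallest p without it. Each reads 5′ to 3′ in the direction of its gene, with matches to the motif on either strand in capitals. The first 4 end at the base before the RefSeq start, and that of Ifitm3 covers bases 1 to 30 from the start, where both of its matches lie.
Ifitm2: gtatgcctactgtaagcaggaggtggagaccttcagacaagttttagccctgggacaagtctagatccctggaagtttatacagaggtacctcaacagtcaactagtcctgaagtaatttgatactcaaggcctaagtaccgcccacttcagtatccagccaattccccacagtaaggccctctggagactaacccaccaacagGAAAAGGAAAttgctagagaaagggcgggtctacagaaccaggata
Rsad2: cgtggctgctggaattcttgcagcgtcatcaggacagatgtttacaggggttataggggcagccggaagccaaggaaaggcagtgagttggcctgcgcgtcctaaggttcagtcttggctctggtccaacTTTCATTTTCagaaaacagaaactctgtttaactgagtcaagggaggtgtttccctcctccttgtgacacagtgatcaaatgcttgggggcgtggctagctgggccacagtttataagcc
Ifit3: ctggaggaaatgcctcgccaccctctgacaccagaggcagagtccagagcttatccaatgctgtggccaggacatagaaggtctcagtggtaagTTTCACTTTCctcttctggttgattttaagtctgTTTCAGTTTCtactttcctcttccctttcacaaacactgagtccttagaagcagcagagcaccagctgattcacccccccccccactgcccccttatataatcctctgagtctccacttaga
Slfn2: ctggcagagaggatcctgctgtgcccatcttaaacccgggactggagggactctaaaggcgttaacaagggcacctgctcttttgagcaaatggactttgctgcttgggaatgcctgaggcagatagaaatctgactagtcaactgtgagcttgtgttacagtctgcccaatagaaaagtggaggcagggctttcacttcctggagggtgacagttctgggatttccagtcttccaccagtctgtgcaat
Ifitm3: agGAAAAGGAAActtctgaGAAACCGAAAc
In GRCm38.p6 these are chr7:140955962-140956211 (minus strand) for Ifitm2, chr12:26456453-26456702 (minus strand) for Rsad2, chr19:34583279-34583528 (plus strand) for Ifit3, chr11:83064862-83065111 (plus strand) for Slfn2 and chr7:141010715-141010744 (minus strand) for Ifitm3. The match began 46 bases before the start in Ifitm2, 120 before it in Rsad2, and 156 and 122 before it in Ifit3, where both matches read as the reverse complement of the motif. In the Slfn2 window no match was found, which says only that these letters are not in it.

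**Figure D1:**
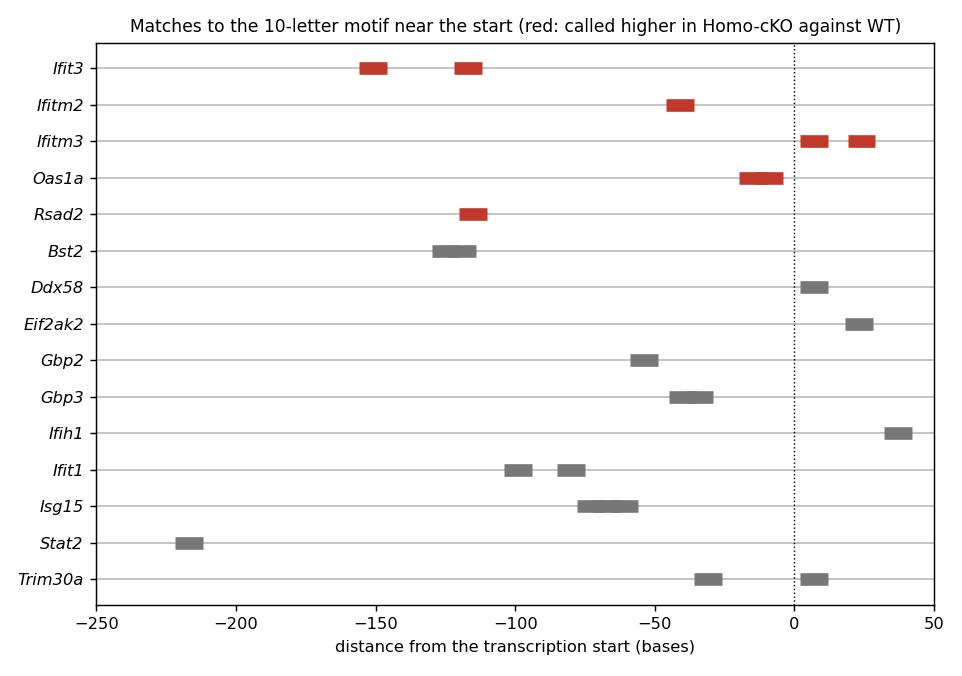
Matches to GAAA-NN-GAAA (blocks, either strand) in the promoter windows of the 15 members that had one, by distance from the RefSeq transcription start in bases. Red marks the 5 genes called higher in Homo-cKO against WT, of 7 called genes with a window. Grey marks the 10 that were not called, of 20 such genes with a window. The called genes Rtp4 and Ifi27l2a had no window. The matches of Trim30a come from 2 windows, and those of Isg15, Gbp3, Bst2 and Oas1a overlap.

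Homo-cKO microglia were compared with WT microglia to ask which interferon-stimulated genes differ between the 2 groups. A gene was called where its fold change exceeded 1.5 and its adjusted p was under 0.05. By that rule 9 of the 34 tested members were called higher (26.5%) and 0 lower, where 1.65% of all genes tested were called higher and 1.75% lower. Those 9 were Rtp4, Ifitm2, Ifitm3, Rsad2, Ifi27l2a, Ifit3, Oas1a, Ifit2 and Irf7. Of these, Rsad2 passed the count filter mainly through its Homo-cKO values. Another 4, Slfn2, Irf9, Xaf1 and Dhx58, passed the adjusted p with a smaller fold, which made 13 members higher by the adjusted p alone (background 5.66%). Of the 34, 32 had a log2 fold change above 0 (background 52%), and the members' median was 0.45 against 0.01 over all genes tested. In bulk RNA of sorted cells, a change in the number of cells with high levels and a change in RNA per cell cannot be told apart.

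All 9 called members were at low levels. Their WT means ran from 0.149 to 10.9 CPM with a median of 4.23, and those of the 25 tested members not called ran from 0.876 to 153 CPM with a median of 14.8. Of the 23 members under 20 CPM in WT, 9 were called, against 2.82% of all genes at that level. Of the 11 members at 20 CPM or more, 0 were called by edgeR's quasi-likelihood test, against 0.578% of all genes, and 0 by DESeq2 and by limma-voom; Slfn2, Irf9 and Herc6 among them had an unadjusted p below 0.05, and Slfn2 and Irf9 also passed the adjusted p. The limit of 20 CPM was chosen after these values were seen.

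**Figure D2:**
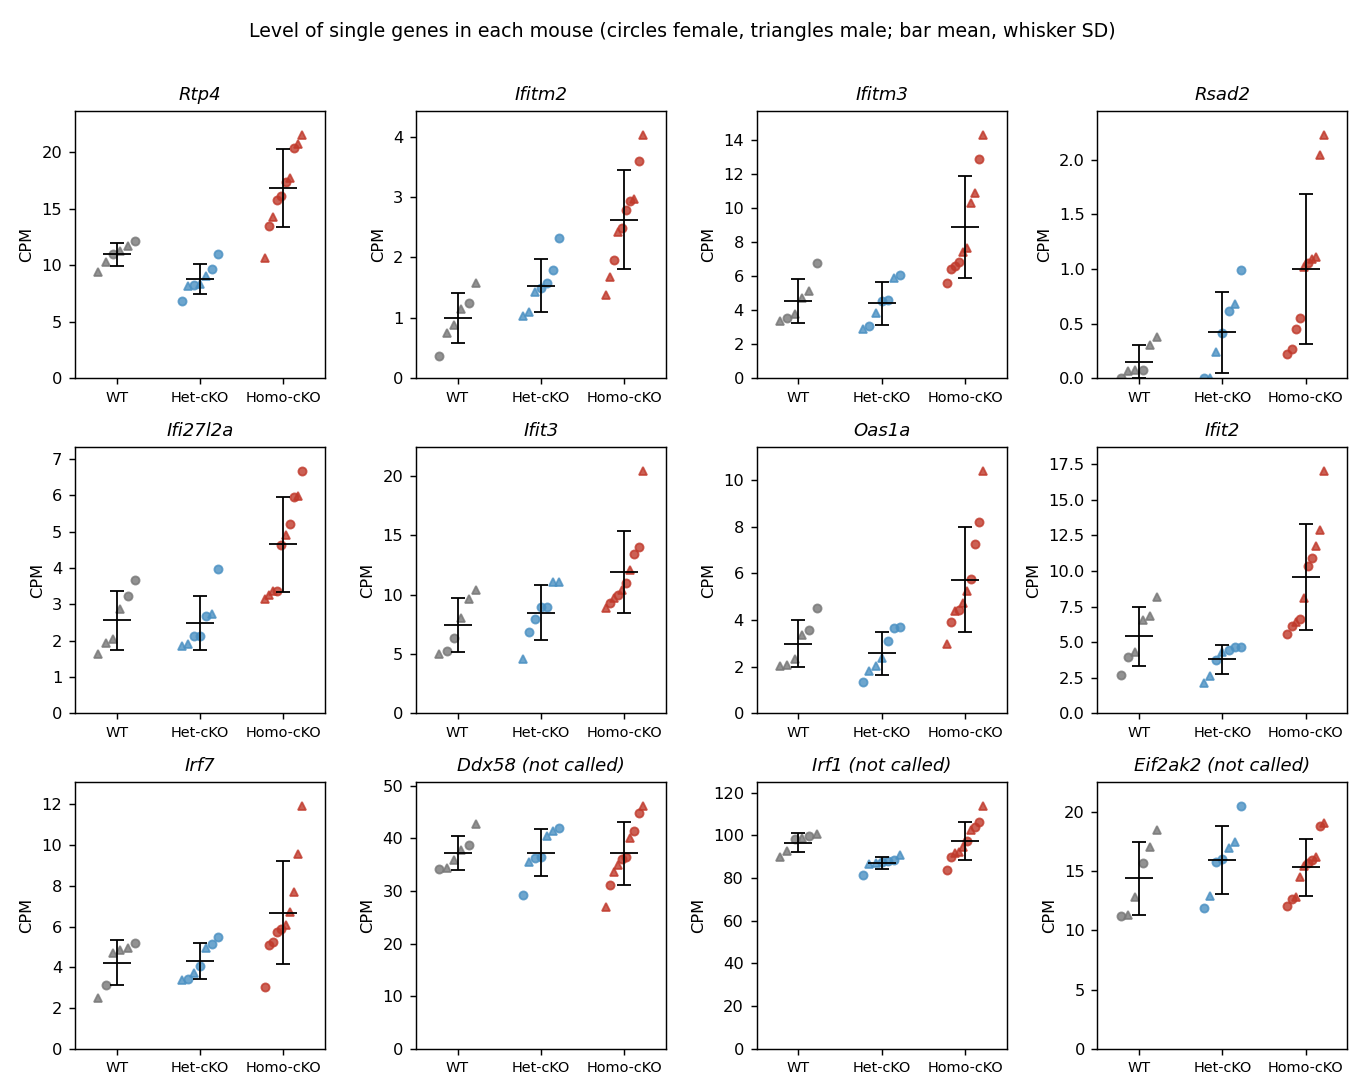
CPM in each mouse for the 9 called members and for the 3 tested members with the largest p, Ddx58, Irf1 and Eif2ak2, with the mean (bar) and SD (whisker) of each genotype. For the called members the Homo-cKO points reach well above the WT points and their lower ends overlap them, whereas for Ddx58 the means are 37.2 CPM in both groups.

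The Ifit genes sit together on chromosome 19 and encode proteins with tetratricopeptide repeats that bind viral RNA. Ifit2 (ENSMUSG00000045932, chr19:34550694-34576419) ran from 2.71 to 8.16 CPM in WT (median 5.44), from 2.11 to 4.65 in Het-cKO (median 4.30) and from 5.55 to 17.0 in Homo-cKO (median 9.23). Every Homo-cKO mouse was above every Het-cKO mouse and 5 of 10 were above every WT mouse. Its log2 fold change against WT was 0.88 (SE 0.26, adjusted p = 0.026). Ifit3 (ENSMUSG00000074896, chr19:34583531-34588731), 1 of the 3 markers, ran from 5.02 to 10.4 CPM in WT (median 7.22), from 4.56 to 11.1 in Het-cKO (median 8.93) and from 8.87 to 20.4 in Homo-cKO (median 10.7). All Homo-cKO mice lay above the WT median, but 5 of them lay inside the WT range, and mouse M5 stood alone at the top. Its log2 fold change was 0.72 (SE 0.21, adjusted p = 0.023). Much of the Ifit3 transcript cannot be assigned from short reads: 51.2% of its 50-base sequences are shared with Ifit3b, which was at 1.78 ± 0.593 CPM in WT and 2.46 ± 0.825 in Homo-cKO (log2 fold change 0.46, adjusted p = 0.40). Ifit1, the cap-binding member of the family, was at 1.91 ± 0.473 CPM in WT and 2.51 ± 0.684 in Homo-cKO and did not pass (log2 fold change 0.38, adjusted p = 0.42).

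Of the 5 membrane proteins, 3 were called (60%, background 1.65%). Differences between the role groups, which hold few genes each, were not tested. Ifitm2 (ENSMUSG00000060591, chr7:140954837-140955987) ran from 0.376 to 1.57 CPM in WT (median 1.01), from 1.02 to 2.32 in Het-cKO (median 1.501) and from 1.38 to 4.02 in Homo-cKO (median 2.64). Only mouse M2 among the Homo-cKO mice was inside the WT range. The log2 fold change was 1.36 (SE 0.31, adjusted p = 0.0058), and 48.5% of its 50-base sequences occur in other annotated genes. Ifitm3 (ENSMUSG00000025492, chr7:141009586-141010770), which restricts viral entry from endosomes, ran from 3.35 to 6.76 CPM in WT (median 4.26), from 2.87 to 6.05 in Het-cKO (median 4.54) and from 5.59 to 14.3 in Homo-cKO (median 7.55). Of the Homo-cKO mice, 7 were above every WT mouse, and 4 of them, M2, M3, M5 and F3, were above 10 CPM. Its log2 fold change was 0.97 (SE 0.23, adjusted p = 0.0073), and 10.0% of its 50-base sequences occur in other annotated genes. Ifi27l2a (ENSMUSG00000079017, chr12:103442167-103443680), an interferon-induced membrane protein, ran from 1.62 to 3.68 CPM in WT (median 2.46), from 1.86 to 3.98 in Het-cKO (median 2.13) and from 3.14 to 6.68 in Homo-cKO (median 4.77). Here 6 Homo-cKO mice exceeded all WT and all Het-cKO mice, and the log2 fold change was 0.81 (SE 0.22, adjusted p = 0.017). Plscr1, the phospholipid scramblase that enters the nucleus on interferon, had a log2 fold change of 0.92 but a wide error (SE 0.37, adjusted p = 0.11). Bst2, or tetherin, which holds budding virus at the cell surface, was at 49.9 ± 3.22 CPM in WT and 56.6 ± 7.76 in Homo-cKO (log2 fold change 0.17, adjusted p = 0.20), and it had the highest WT level of all members per length, at 55.3 CPM per kb.

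Among the RNA and nucleic acid sensors, 1 of 7 tested was called (14.3%, background 1.65%). Oas1a (ENSMUSG00000052776, chr5:120896256-120907521), an oligoadenylate synthetase, ran from 2.05 to 4.51 CPM in WT (median 2.86), from 1.33 to 3.72 in Het-cKO (median 2.37) and from 3.00 to 10.4 in Homo-cKO (median 4.99). It was above every WT mouse in 6 Homo-cKO mice and above every Het-cKO mouse in 9, with a log2 fold change of 0.91 (SE 0.27, adjusted p = 0.026). Of its 50-base sequences 57.6% are shared with Oas1g, so the split of reads between the genes is uncertain, and Oas1g had 0.375 ± 0.475 CPM in WT and 0.630 ± 0.622 in Homo-cKO. Dhx58, the Rig-I-like helicase that tunes the other sensors, rose by less than the fold threshold, from 14.8 ± 2.04 to 20.2 ± 5.07 CPM (log2 fold change 0.49, SE 0.16, adjusted p = 0.040). Ifih1, the sensor of long double-stranded RNA, was at 12.8 ± 1.49 and 17.3 ± 4.64 CPM (adjusted p = 0.076). Ddx58, which encodes Rig-I, gave 37.2 ± 3.21 CPM in WT and 37.2 ± 5.99 in Homo-cKO, with a log2 fold change of 0.00 (SE 0.10) whose sign differed between normalizations. Eif2ak2, the kinase that halts translation on double-stranded RNA, had a log2 fold change of 0.10 (SE 0.14, adjusted p = 0.71). Oasl2 and Zbp1, at 0.48 and 0.73, did not pass (adjusted p = 0.25 and 0.39). Oasl1 had 39 counts over all WT mice, 15 over Het-cKO and 79 over Homo-cKO and was not fitted; its mean was 0.481 ± 0.451 CPM in WT and 0.563 ± 0.537 in Homo-cKO (p = 0.768, two-sided exact permutation test, adjusted p = 0.768 over the 2 members with low counts).

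The transcription factors divided. Irf7 (ENSMUSG00000025498, chr7:141262706-141266481), the amplifier and a marker, ran from 2.51 to 5.18 CPM in WT (median 4.79), from 3.38 to 5.47 in Het-cKO (median 4.05) and from 3.05 to 11.9 in Homo-cKO (median 5.97). Mouse F4 was below the WT median and M2 and M3 were the highest, at 11.9 and 9.56 CPM. Its log2 fold change was 0.68 (SE 0.23), and its adjusted p of 0.048 lay next to the threshold: the call held in 5 of 23 fits that each left out 1 mouse, with adjusted p between 0.021 and 0.13. Irf9, the DNA-binding partner in ISGF3, rose slightly but in nearly every mouse, from 69.8 ± 7.26 to 82.6 ± 6.32 CPM (log2 fold change 0.25, SE 0.07, adjusted p = 0.026), with 9 of 10 Homo-cKO mice above all WT mice. Stat2 was at 29.3 ± 1.46 and 33.6 ± 6.18 CPM (log2 fold change 0.18, adjusted p = 0.31; below 0 without the Homo-cKO mice with high Fos). Irf1, a factor most strongly induced by interferon gamma, was at 96.6 ± 4.37 and 97.6 ± 8.90 CPM (log2 fold change 0.02, SE 0.06, adjusted p = 0.90).

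The other effectors were led by a gene of very low level. Rsad2 (ENSMUSG00000020641, chr12:26442746-26456452) encodes viperin, a radical SAM enzyme that makes a chain-terminating nucleotide. It had 12 counts over the 6 WT mice and 144 over the 10 Homo-cKO mice, and ran from 0 to 0.375 CPM in WT (median 0.0743), from 0 to 0.995 in Het-cKO (median 0.417) and from 0.218 to 2.22 in Homo-cKO (median 1.03). Above every WT mouse were 8 Homo-cKO mice. The log2 fold change was 2.80 (SE 0.72, adjusted p = 0.012), a ratio over very few WT counts. Rsad2 passed the count filter mainly through the Homo-cKO mice, the group where it is high, so its being tested depended on them. It was also called with no filter on low counts. The other 5 genes of this group were not called: Mx1, a dynamin-like GTPase, was at 2.09 ± 0.283 and 2.66 ± 0.847 CPM, and Gbp2, Gbp3, Samhd1 and Trim30a had log2 fold changes between 0.13 and 0.37 with adjusted p between 0.27 and 0.34. Gbp proteins are guanylate-binding GTPases, Samhd1 depletes nucleotides, and Trim30a shares 5.98% of its 50-base sequences with Trim30d. In the Isg15 system 0 of 3 were called by edgeR's quasi-likelihood test, with unadjusted p below 0.05 for 2 (background 27.1% of genes): the modifier Isg15 was at 3.38 ± 0.416 and 4.13 ± 1.19 CPM (adjusted p = 0.45), its protease Usp18 at 4.05 ± 2.03 and 5.98 ± 1.53 (log2 fold change 0.64, adjusted p = 0.10, called by limma-voom) and Herc6, the ligase, at 24.2 ± 2.97 and 28.5 ± 4.95 (adjusted p = 0.064).

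Of the remaining members, Rtp4 and Slfn2 had the smallest p of all 34. Rtp4 (ENSMUSG00000033355, chr16:23520291-23614222), a receptor transporter protein strongly induced by interferon and a marker, ran from 9.35 to 12.1 CPM in WT (median 11.1), from 6.84 to 11.01 in Het-cKO (median 8.36) and from 10.7 to 21.5 in Homo-cKO (median 16.8). In 9 of 10 Homo-cKO mice it was above every WT and every Het-cKO mouse, and mouse M4 was the exception. Its log2 fold change was 0.61 (SE 0.14, adjusted p = 0.0046), just past the fold threshold, and limma-voom did not call it. Of the 50-base sequences of Rtp4, 11.6% are shared with Gm45338. Slfn2 (ENSMUSG00000072620), a Schlafen protein of lymphoid and myeloid cells, ran from 17.4 to 28.7 CPM in WT (median 21.7), from 16.5 to 23.3 in Het-cKO (median 20.8) and from 21.2 to 39.6 in Homo-cKO (median 34.2), with 8 Homo-cKO mice above all WT mice. Its log2 fold change was 0.56 (SE 0.12, adjusted p = 0.0040), just under the threshold. Xaf1, a pro-apoptotic factor, rose from 8.88 ± 1.32 to 12.7 ± 2.81 CPM (log2 fold change 0.50, adjusted p = 0.029). Sp100, a nuclear body protein, had the same log2 fold change of 0.50 with a wider error (SE 0.19, adjusted p = 0.079). Parp14 and Lgals3bp were the 2 members below 0, at -0.22 (SE 0.15, adjusted p = 0.38) and -0.12 (SE 0.11, adjusted p = 0.55). Ifi44 had 0 counts in all 6 WT mice, which allows up to 0.0353 CPM over that group by counting error alone, 18 counts over Het-cKO and 33 over Homo-cKO; it was above 0 in 6 Homo-cKO mice, with a mean of 0.229 ± 0.364 CPM (p = 0.0524, two-sided exact permutation test, adjusted p = 0.105).

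**Figure D3:**
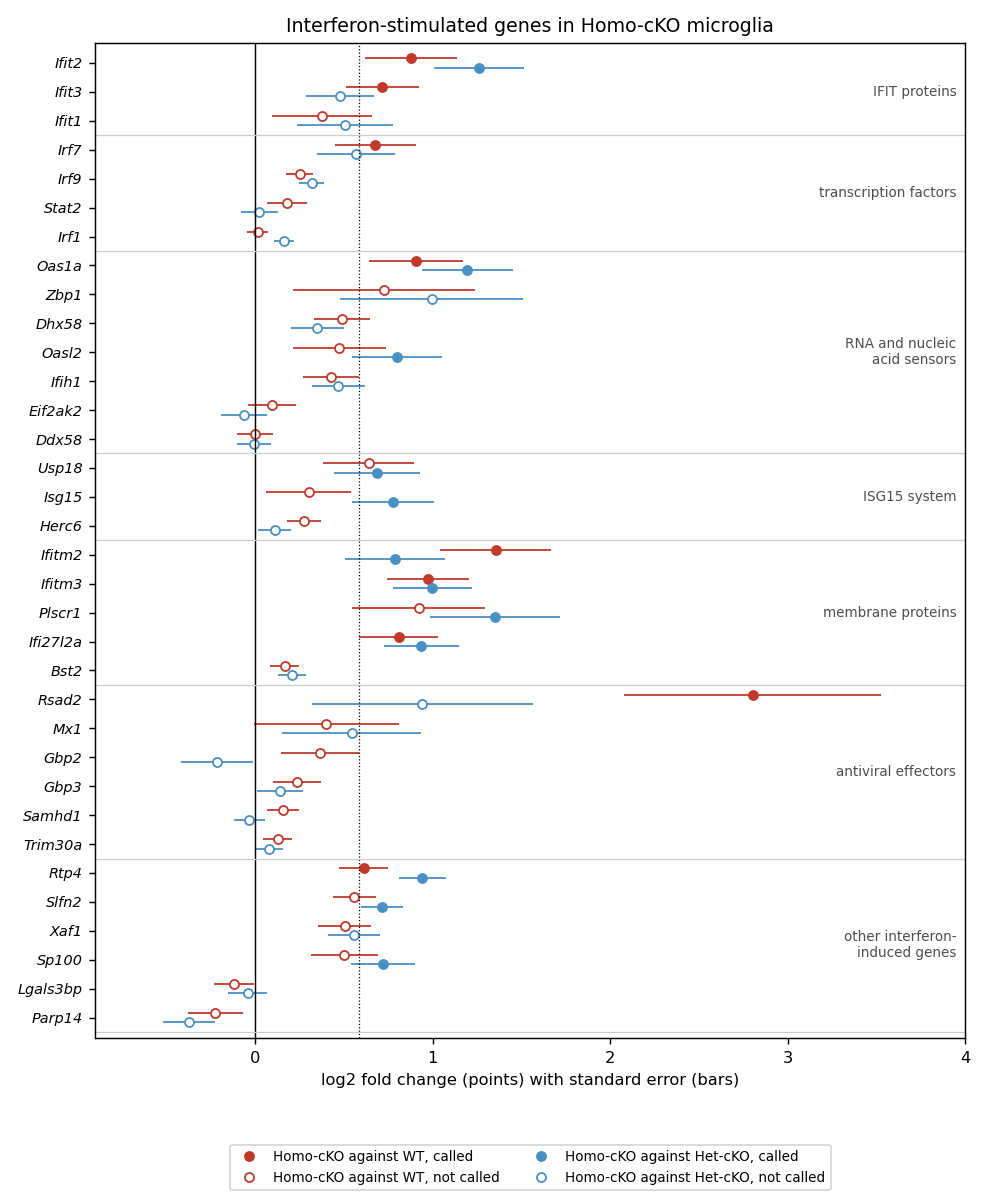
Log2 fold change (points) with standard error (bars) of the 34 tested members by role, for Homo-cKO against WT (red) and against Het-cKO (blue); filled points were called and the dotted line marks the fold change of 1.5. In red, 32 of 34 points lie right of 0, and Rsad2 at 2.80 has the widest error.

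Against Het-cKO mice, which also carry Thy1-Cre, 12 of 34 members were called higher (35.3%) and 0 lower, with 2.32% of all genes called higher and 4.3% lower. Since both comparisons share the Homo-cKO mice, they are given side by side only. Called in both were 6: Rtp4, Ifitm2, Ifitm3, Ifi27l2a, Oas1a and Ifit2. Called here and not against WT were Slfn2, Sp100, Usp18, Plscr1, Oasl2 and Isg15, whose log2 fold changes were 0.72, 0.72, 0.69, 1.35, 0.80 and 0.78 (against WT 0.56, 0.50, 0.64, 0.92, 0.48 and 0.30). Rtp4 had the smallest adjusted p of the members, 4.1e-05, with a log2 fold change of 0.94 (SE 0.13). Ifit3 (0.48, adjusted p = 0.074), Irf7 (0.57, adjusted p = 0.060) and Rsad2 (0.94, adjusted p = 0.29) were called against WT and not here. That a gene passed in one comparison and not in the other was not tested as a difference. The members' median log2 fold change was 0.53, against -0.00 over all genes.

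Loss of 1 copy of neuronal Bin1 left no member called. In Het-cKO against WT, 0 of 34 members and 0 of 12908 genes passed edgeR's quasi-likelihood test (0 members also by DESeq2 and limma-voom), with 4 members and 998 genes (7.73%) at an unadjusted p below 0.05. Those 4 did not share a direction: Rsad2 (log2 fold change 1.86, p = 0.031) and Gbp2 (0.58, p = 0.022) were above 0, and Rtp4 (-0.33, p = 0.034) and Irf1 (-0.15, p = 0.032) below it. The median of the members was -0.05, and 14 of 34 were above 0 (background 49.2%). Between females and males, 0 members were called by the same test (background 0.0387% higher in females and 0.031% lower), with 5 at an unadjusted p below 0.05 (background 5.83%, smallest p for Herc6, 0.014), and the Homo-cKO effect did not differ between the sexes past the adjusted p for any member (1 at an unadjusted p below 0.05, background 4.99%, Slfn2, p = 0.0035, adjusted p = 0.91).

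Read mouse by mouse, the rise was spread over the Homo-cKO group and uneven within it. Each Homo-cKO mouse exceeded all 6 WT mice in between 9 (F4) and 26 (M2) of the 34 tested members, with a median of 18, whereas Het-cKO mice did so in 3 to 10, with a median of 5. The per-mouse counts in this paragraph were not taken over all genes, so they do not show what is particular to the members. No gene separated the groups fully: in 0 of 34 members were all 10 Homo-cKO mice above all WT mice (87 of 12908 genes, 0.674%), and in 3, Rtp4, Ifitm2 and Irf9, were 9 of them. Against Het-cKO mice, 1 member, Ifit2, separated fully (background 1.36%). The leading genes differed between mice: M5 had the highest value of all 23 mice for 8 members, among them Ifit2, Ifit3, Isg15, Ifitm3 and Rtp4, and M2 for 7, among them Irf7, Oas1a, Usp18 and Bst2. In the 4 Homo-cKO mice with high Fos, 15 to 26 members were above all WT mice, and in the other 6, 9 to 23. By animal number, it was 15 to 26 in the mice starting 03 and 9 to 21 in those starting 04.

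**Figure D4:**
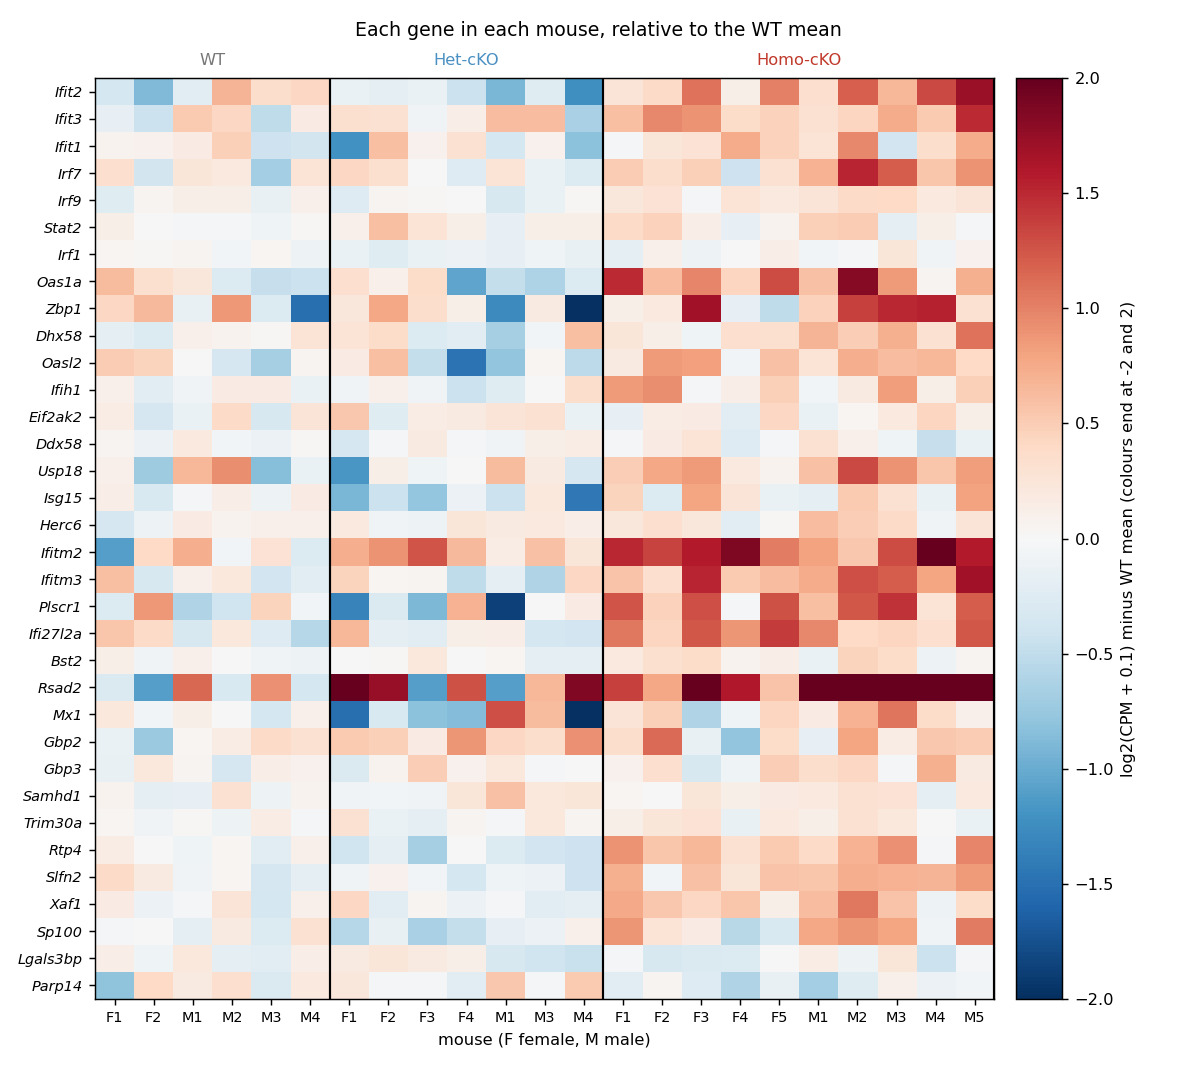
Each of the 34 tested members (rows, by role) in each of the 23 mice (columns, F female and M male), as log2(CPM + 0.1) minus the WT mean, with colours ending at -2 and 2. Red fills most of the Homo-cKO columns for Ifit2, Oas1a, Ifitm2, Ifitm3, Ifi27l2a, Rsad2, Rtp4 and Slfn2, and is pale for the rows of Irf1, Ddx58 and Eif2ak2. Homo-cKO mouse F4 is pale for Ifit2, Oas1a, Ifitm3, Rtp4 and Slfn2. The same mouse is strongly red for Ifitm2 (3.60 CPM against a WT mean of 0.994) and Rsad2 (0.549 against 0.149).

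Other quantities moved with genotype. The summed level of the 5 monocyte markers was 4.63 to 10.6 CPM in WT, 4.43 to 13.8 in Het-cKO and 8.81 to 25.3 in Homo-cKO mice, with Ccr2 called higher (12.5 ± 3.89 against 4.92 ± 0.701 CPM) and with Ly6c2 at 1 count over all WT mice and at 32 counts over all Homo-cKO mice. The summed neuron markers were 5.87 to 26.2 CPM in WT and 1.38 to 5.31 in Homo-cKO, and the summed microglia markers 60782 to 86849 in WT and 52001 to 61231 in Homo-cKO. Neutrophil markers summed to 0 to 22.1 CPM in WT and 0 to 50.8 in Homo-cKO, and S100a8 had means of 2.38 and 8.64 CPM (adjusted p = 0.24). The part of these in the members' levels was not tested. Without the 4 Homo-cKO mice with high Fos, 7 members were called, 6 of them among the 9; Irf7 and Oas1a were not called, Rsad2 fell below the count filter and Slfn2 was gained. With an immediate-early score as a covariate, 6 of the 9 were called, without Irf7, Oas1a and Rtp4. With only the Homo-cKO mice starting 03, 7 were called, 5 of them among the 9, and with only those starting 04, 3 (Ifit2, Ifitm2 and Ifitm3); Rsad2 fell below the filter in both. In these 4 fits the share of all genes called higher was 1.15%, 1.14%, 1.74% and 1.18%, beside 1.65% with all mice.

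Whether the members vary together between mice was asked within the Homo-cKO group for the 3 marker pairs. Across the 10 mice, Rtp4 and Ifit3 had Pearson's r = 0.563 (permutation p = 0.0907) and Spearman's rho = 0.612 (permutation p = 0.0670), Irf7 and Rtp4 r = 0.469 (permutation p = 0.170) and rho = 0.539 (permutation p = 0.113), and Irf7 and Ifit3 r = 0.180 (permutation p = 0.594) and rho = 0.0788 (permutation p = 0.837). None of the 3 passed after adjustment (permutation, adjusted p = 0.255, 0.255 and 0.594 for r, and 0.170, 0.170 and 0.837 for rho). Leaving out the 2 mice farthest from the median on the x axis, r was 0.479, 0.433 and 0.269. In the 6 Homo-cKO mice with low Fos, the same pairs gave r = 0.712, 0.591 and 0.593, without a test. Whether these differ from the values over all 10 mice was not tested. No value was taken for the 6 mice starting 03. In the 4 mice starting 04 and the 4 with high Fos, there were too few for a value.

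For every tested member, the correlation with the mean of the other members was also taken over 23 mice, after removing genotype and sex means. This is a description without a test, since the points share libraries, depth and cell makeup. The median r was 0.23 (all genes -0.01), and 31 of 34 were above 0. Irf7 was the member most like the rest (r = 0.79), followed by Slfn2 (0.57), Rtp4 (0.55), Zbp1 (0.53) and Bst2 (0.53). Bst2, whose rise did not pass, had r = 0.72 within WT and 0.79 within Homo-cKO but -0.32 within Het-cKO. At the other end were Gbp3 (-0.25) and Ifitm2 (-0.20), and Ifi27l2a (0.03) and Rsad2 (0.08) were near 0, although Ifitm2, Ifi27l2a and Rsad2 were called. Between single pairs of members the median r was 0.09 over 561 pairs, against -0.00 for pairs of all genes. Within genotypes, with the sex mean removed, the median r of a member with the others was 0.40 in Homo-cKO (10 mice, range -0.41 to 0.90). It was 0.45 in WT (6 mice, range -0.89 to 0.998) and -0.09 in Het-cKO (7 mice, range -0.54 to 0.77). Over all genes the medians were -0.004, -0.02 and -0.008. These groups are small, and a difference between genotypes was not tested.

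**Figure D5:**
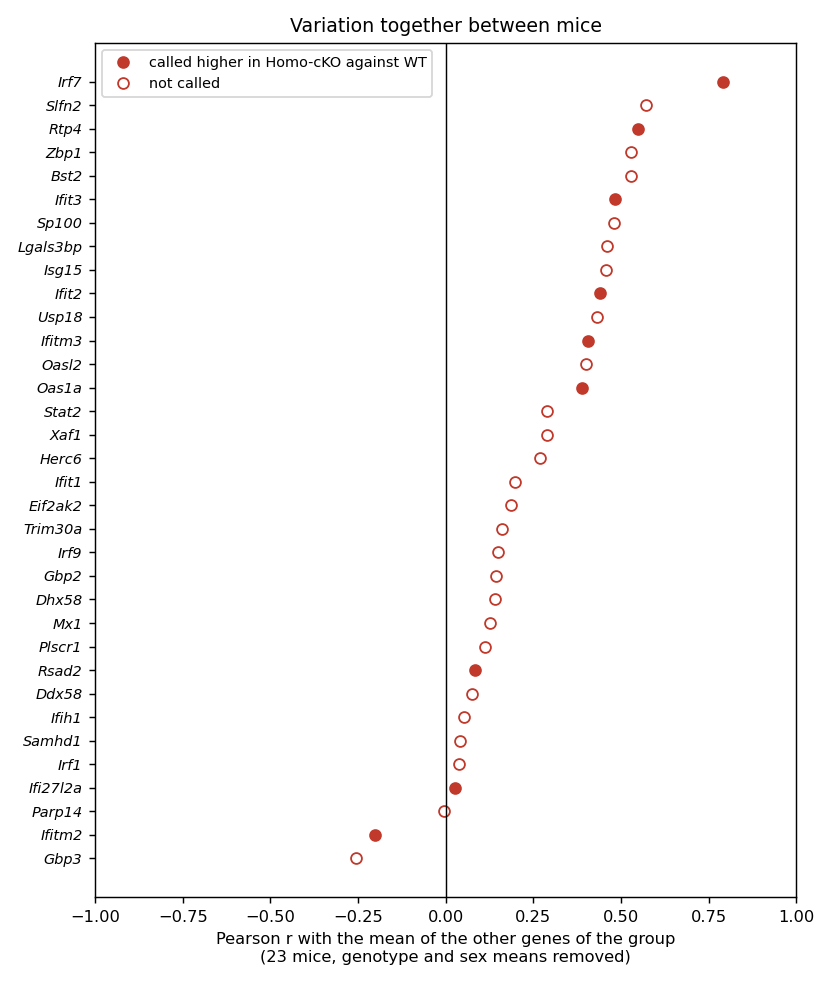
Pearson's r of each of the 34 tested members with the mean of the other members, over 23 mice with genotype and sex means removed. Irf7 lies at 0.79 and Gbp3 at -0.25; called members (filled) are found at both ends, with Ifitm2 at -0.20.

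The rest of the pathway was read from lists of other genes. No interferon could be tested: of 20 interferon genes, 18 were listed at 0 in all 23 mice. Such a 0 sets no limit on a gene's level here, because Btg2, an immediate-early gene, and Ikbke, Tor3a, Mrc1 and Cldn5 were also listed at 0 in every mouse. Ifnb1 had 4 counts, in 3 Homo-cKO mice, and Ifnz 11 in WT, 4 in Het-cKO and 10 in Homo-cKO.

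Of the receptors, kinases and signal carriers, 0 of 9 tested were called by edgeR, with 3 at an unadjusted p below 0.05 (33.3%, near the 27.1% of all genes) and 1 past the adjusted p. That gene was Ifngr1, the ligand-binding chain of the interferon gamma receptor, which fell from 1960 ± 184 CPM in WT to 1402 ± 89.3 in Homo-cKO (log2 fold change -0.50, SE 0.07, adjusted p = 9e-05). Ifnar1 was at 133 ± 15.8 and 114 ± 9.77 CPM (log2 fold change -0.22, adjusted p = 0.088) and Ifnar2 at 326 ± 25.2 and 296 ± 21.04 (-0.15, adjusted p = 0.13). Ifngr2, the second chain of the interferon gamma receptor, did not pass (log2 fold change 0.02, adjusted p = 0.87).

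Among 16 tested sensors and factors that induce interferon, 0 were called by edgeR, with 5 at an unadjusted p below 0.05 (31.2%, near the 27.1% of all genes), and 2 passed the adjusted p below 0: Tmem173, which encodes Sting, at 1020 ± 111 and 740 ± 47.9 CPM (log2 fold change -0.47, SE 0.07, adjusted p = 0.00022), and Tlr9, the receptor of unmethylated DNA (-0.51, SE 0.15, adjusted p = 0.026). Of 10 inhibitors, 1 was called higher (10%, background 1.65%). It was Socs3, which blocks Jak kinases, at 98.9 ± 51.4 against 40.1 ± 11.4 CPM (log2 fold change 1.29, SE 0.29, adjusted p = 0.0051). Ptpn2, a phosphatase that acts on Jak and Stat proteins, rose by less than the threshold (0.37, adjusted p = 0.0023), and Irf2bp1, a corepressor, was lower by less than the threshold (log2 fold change -0.25, adjusted p = 0.011).

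Of 60 other tested genes of the type I response, 6 were called higher (10%, background 1.65%) and 0 lower (background 1.75%), with a median log2 fold change of 0.19 against 0.01 over all genes. Below 0, Ly6e passed the adjusted p (-0.27, adjusted p = 0.0030). The 6 were Phf11d (27.7 ± 4.11 against 18.2 ± 2.71 CPM, above all WT mice in every Homo-cKO mouse, adjusted p = 0.00057), the chemokine Ccl12 (85.2 ± 68.4 against 28.7 ± 4.11 CPM, adjusted p = 0.0030), the Ifi200-family genes Mndal (log2 fold change 2.57 at under 1 CPM) and Ifi209 (0.70), and Trim30d and Trim12a (0.68 each). Mndal was at most 0.225 CPM in WT and up to 1.92 in Homo-cKO, so it passed the count filter mainly through Homo-cKO mice. Of 19 GTPases and factors best known from the interferon gamma response, 3 were called higher, Fcgr4 (1.39), Tgtp2 (0.95) and Ciita (2.27 at under 1 CPM), and 0 lower, with a median of 0.24 (15.8% called higher, background 1.65%). Tap2, a peptide transporter, passed the adjusted p below 0 (-0.41, adjusted p = 0.0025). The lists were chosen with earlier results known, so these counts are a description.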

How the data were processed

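RNA from sorted microglia of 23 mice was read from 1 table of expected counts per gene. The authors used OmicSoft OSA4 to align single-end reads of 50 bases to mm10 (gene model Ensembl R84), and the deposited values are RSEM expected counts, not normalized for depth or length. The library kit does not mark strand, and the handling of reads with several alignments is not stated, so genes with near-identical copies or antisense partners are uncertain. Labels name 25 mice, and 2 without a column were not analysed here.

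Identifiers were matched to symbols and GRCm38 coordinates (GENCODE vM21) for 42929 of 43411 genes. Counts were rounded, filtered with filterByExpr by genotype (12908 genes) and normalized by TMM. Tests were edgeR's quasi-likelihood F-tests (version 4.0.16 under R 4.3.3) with genotype and sex in 1 fit and Benjamini-Hochberg adjustment over all genes tested. Calls needed a fold change over 1.5 with an adjusted p under 0.05. The study's methods name DESeq2, which was run as an alternative (1.42.0), as was limma-voom (limma 3.58.1). Steps were tested on simulated data. Members below the filter had exact permutation tests, and correlations 100000 resamples. CPM values were divided by TMM-adjusted library totals; per-kb values use the summed exon length. Shared sequences were sought among 50-base stretches of annotated transcripts. The members, their roles, the gene lists and the tests were chosen with earlier results of these data known. Members called against WT and the 3 markers were given in full, the others by role; of each other list, at most 5 called genes by smallest p, with the receptors, and Ifi209, Tlr9, Ptpn2, Tmem173, Ifit3b, Oas1g, Ly6e, Tap2, Irf2bp1, S100a8 and the genes listed at 0 named after their values were seen. Values of some listed genes are not reported here. Depth, 10812969 to 16734846 counts per mouse, limits precision for genes near 1 CPM. Separate mice are the replicates. Figures were drawn with matplotlib.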

Additional observations from a re-analysis of the deposited data

Results flagged for a closer look

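Of 107 groups of 6, 7 or 10 mice examined, each 1 member in 1 genotype, 6 held a mouse whose gap to its neighbour was large for the range of its group. Chance gives about 1 in 20 such groups. Ifit3 was highest in Homo-cKO mouse M5, at 20.43 CPM with the others between 8.866 and 14.02. Irf9 was lowest in Homo-cKO mouse F3, at 68.66 CPM with the others between 79.68 and 91.70. Het-cKO mouse F1 was highest for Ifi27l2a, at 3.979 CPM against at most 2.726, and for Xaf1, at 11.77 CPM against at most 9.162. Ifi44 was highest in Het-cKO mouse M4, at 0.9294 CPM against at most 0.2656, and in Homo-cKO mouse M2, at 1.163 CPM against at most 0.4792. Without M5, 5 members were called in Homo-cKO against WT (1.59% of all genes called higher), and Ifit3 was not among them.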

How the results depend on the processing

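Genes of a few CPM limit precision here, Rsad2 most of all. For Homo-cKO against WT, 9 members were called (1.65% of all genes called higher). DESeq2 gave 9 (1.98%), and so did DESeq2's size factors in edgeR (1.63%). With library totals only, 14 were called (2.69%). There the median of all genes moved to 0.11 and that of the members to 0.55. Leaving out 1 mouse gave between 5 and 10 calls, with 5 without Homo-cKO mouse M5 and 5 without WT mouse M3. Between 1.25% and 1.73% of all genes were called higher in those 23 fits. Ifitm2, Ifitm3, Ifi27l2a and Rsad2 were called in all 23 of those fits, Oas1a in 20, Ifit2, Ifit3 and Rtp4 in 19 and Irf7 in 5. For Rsad2 these calls rest on a count filter that it passed mainly through the Homo-cKO mice. With the Homo-cKO mice starting 04 only, 3 members were called against WT (1.18% of all genes called higher) and 6 against Het-cKO. The main count against Het-cKO was 12 (2.32% of all genes), and it was between 10 and 13 with 1 mouse left out. The fit with the mice starting 04 has 4 Homo-cKO mice, and its share of all genes against Het-cKO was not taken. The fits with at least 1 CPM in 6 mice, no sex term or the 2 groups alone each called 8 against WT, without Irf7. Their shares of all genes called higher were 1.61%, 1.54% and 1.55%. limma-voom also called 8 (1.34% of all genes), without Oas1a and Rtp4 and with Usp18. Het-cKO against WT gave 0 in every fit that left out 1 mouse.

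Signs changed for members near 0. Ddx58 was at -0.00332 with DESeq2, -0.0132 with limma-voom, -0.00333 with DESeq2's size factors, -0.00374 with at least 1 CPM in 6 mice, -0.00286 with no sex term, -0.0115 with the 2 groups alone, -0.214 with the mice starting 04 only, -0.109 without the mice with high Fos and -0.139 with the immediate-early score. Stat2 was at -0.0217, -0.0307 and -0.0906 in the last 3 of these, and Trim30a at -0.0166 with the mice starting 04 only. With 1 mouse left out, Ddx58 ranged from -0.0500 to 0.0541 and Irf1 from -0.0173 to 0.0358. The cause of these changes was not tested. No paired analysis was possible because the labels give every mouse its own animal number; names such as F1 only order the mice within a genotype and sex, and the same name in 2 genotypes marks 2 mice that the labels do not pair.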
